A study of Mus musculus with 10 samples.

Results

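The interferon response genes described here are genes that cells switch on after they sense interferon or viral nucleic acid, among them Usp18 and Oas1a, which are used as markers of the response. They were chosen by name as a list of 39 genes, with no threshold on their values. Of these, 35 had a row among the 20579 genes of the deposited count table, 4 were not analysed here, and 33 of the 35 passed the filter on low counts. The cells came from the intestine of mouse embryos at stage E18.5, shortly before birth, with the strain label C57BL6/J / 129S4. All carried green fluorescent protein (GFP) driven by the promoter of Hopx, a homeodomain gene used to mark crypt stem cells, and GFP-positive cells were sorted by flow cytometry into Trizol. The 5 p57KO libraries came from embryos labelled as knockout for p57Kip2, a cyclin-dependent kinase inhibitor encoded by Cdkn1c, and the 5 p57WT libraries from wild-type embryos, and no treatment was named for either genotype. Which part of the gene the allele lacks, and which part of the intestine was taken, are not given in the sources used here, and the gate is only as specific as the Hopx promoter.

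Type I and type III interferons bind receptors whose kinases phosphorylate STAT2, which acts with IRF9 at a DNA element called the interferon-stimulated response element (ISRE). Interferon gamma acts through another element, the gamma-activated site (GAS), and IRF1 and IRF7 extend the response. The products sense viral RNA or DNA, block translation and viral entry, and switch the signal off again, and in the gut type III interferon acts mainly on epithelial cells while type I interferon also acts on leukocytes.

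Total counts ranged from 8037887 to 26809231 per library, and 3 of the 4 deepest libraries were p57KO. Cdkn1c had 24, 6, 22, 4 and 11 counts across p57KO 1 to 5 and 1386 to 3864 counts in the p57WT libraries, so the genotype labels held in this check. The design speaks of 5 intestines of each genotype but gives no animal identifiers, so p-values measure the spread between these libraries. The column labels hold a further number of unstated meaning: 607 covers p57KO 1, p57KO 2 and p57WT 1, 608 covers p57KO 3 to 5, and 740 covers p57WT 2 to 5. The share of counts on Mir6236, a feature inside the ribosomal RNA repeat, was above 1% in p57KO 5 and in p57WT 1, 3, 4 and 5, and at most 0.0430% in the other libraries, so it followed genotype in 8 of 10 libraries. Summed markers of smooth muscle and fibroblasts were at 4738 to 32798 CPM (counts relative to the scaled total of the library) in p57KO and 49779 to 100406 CPM for p57WT, and epithelial markers were at 9306 to 17818 CPM against 3197 to 7711 CPM. In bulk RNA, fewer cells of a type and less RNA per cell cannot be told apart.

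Several interferon response genes had more RNA in p57KO than in p57WT. The increase took in the transcription factors Irf1 and Irf7, the nucleic acid sensor Zbp1, the RNA-activated synthetases Oas1a and Oas3, the antiviral protein Ifit1, the protease Usp18, the ADP-ribosyltransferase Parp9 and Ifi35, and the guanylate-binding protein gene Gbp2 fell. By edgeR's quasi-likelihood test, 9 of 33 members were called higher and 1 lower, and 23 were not called. Called means a p below 0.05 after Benjamini-Hochberg adjustment across the 16710 tested genes. Over all genes tested 19.3% were called higher and 17.2% lower. The median log2 fold change (p57KO over p57WT) was 0.70 over the 33 members, 26 of them above 0, and 0.08 over all genes, 53.1% of them above 0. Of the 33, 2 (Zbp1 and Oas1a) had every p57KO library above every p57WT library, where 11.5% of all genes did, and none had every p57KO library below, where 12.7% of all genes did. A member with low counts could pass the filter only through the genotype where it was high, as Zbp1 did through p57KO. These counts therefore describe the tested members and support nothing about all 39.

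These directions rest on TMM scaling (edgeR's trimmed mean of M values), which sets libraries level on the bulk of their genes. With each library scaled to its summed epithelial markers, the median of all genes moved from 0.08 to -1.41 and that of the members from 0.70 to -0.94. On that scale 2.17% of all genes were called higher and 65.8% lower, and among the members 2 were higher (Zbp1 and Usp18) and 12 lower. With the ribosomal repeat class as a term, a fit chosen after the data were seen that compares genotypes within classes of 4 against 1 and 1 against 4 libraries, 1 member was called higher (Usp18) and 0 lower, where 7.22% and 10.5% of all genes were. The members' median was 0.61 in that fit. Fold changes under TMM follow, and each member whose sign turned on the epithelial scale is marked where its direction is given.

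**Figure D1:**
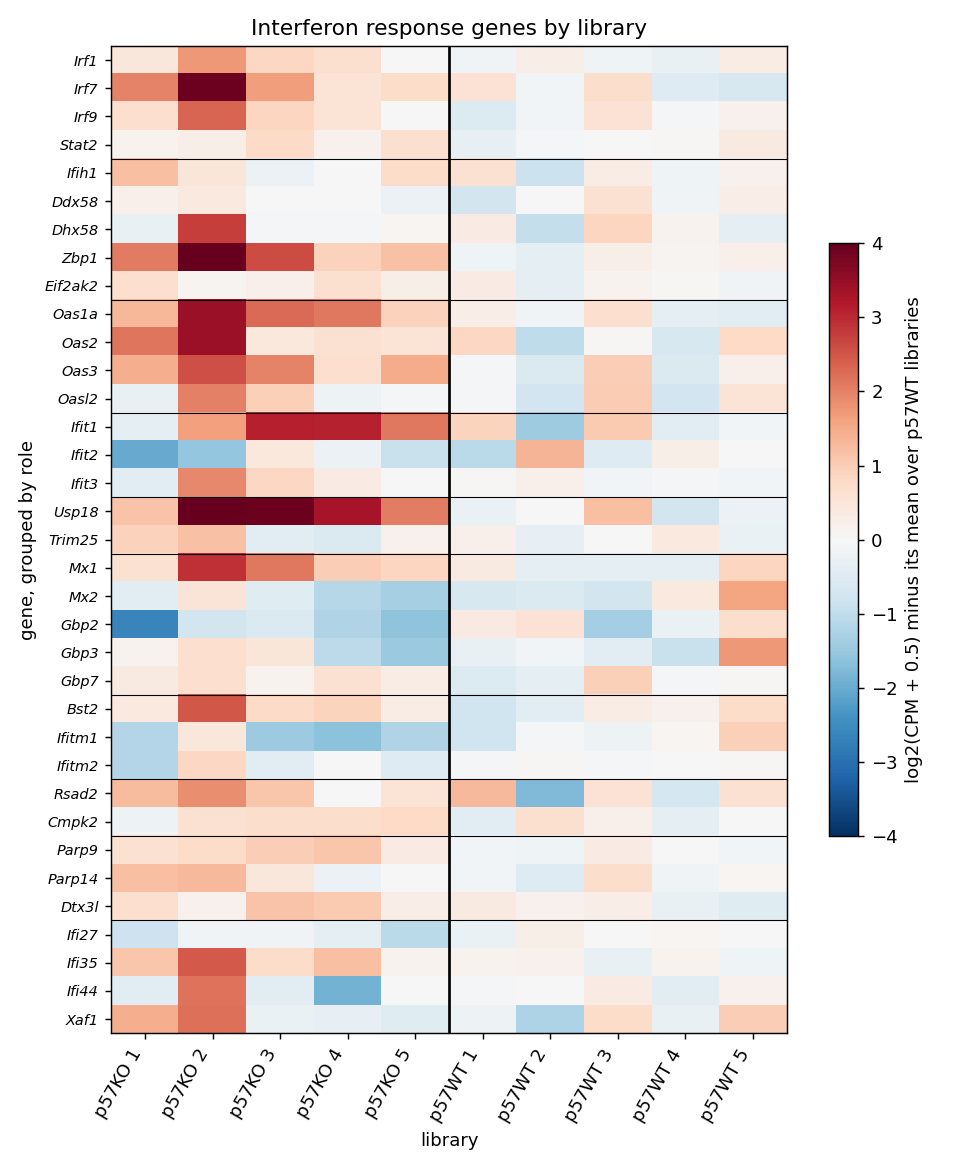
The heat map shows log2(CPM + 0.5) of the 35 members in each of the 10 libraries, as the difference from the gene's mean over the 5 p57WT libraries, with genes grouped by role. The column of p57KO 2 holds the highest p57KO value for 24 of the 33 tested members.

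The promoters of some members hold the element at which STAT2 and IRF9 act, and a few are shown here because they let the called genes be compared with members that were not called. Promoter windows of 250 bases before to 50 after the start (RefSeq, build GRCm38.p6) were matched by symbol for 26 of the 35 members. The motif searched as the ISRE was GAAANNGAAA on either strand, which reads TTTCNNTTTC when it lies on the other strand. It was in at least 1 window of 14 of the 26 members (53.8%), which had 30 windows, and in 1131 of all 32851 windows (3.44%). The first share counts genes and the second counts windows, so their units differ. The capitals below mark the match, the strand is that of the gene, and each piece lies before the start, from which the distances below are counted as RefSeq places it.
Oas1a, chr5:120907526-120907565, minus strand: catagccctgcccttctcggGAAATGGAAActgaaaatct
Oas3, chr5:120777705-120777754, minus strand: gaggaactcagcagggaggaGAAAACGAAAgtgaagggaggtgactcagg
Ifit1, chr19:34640765-34640814, plus strand: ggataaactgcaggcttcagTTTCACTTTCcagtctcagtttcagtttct
Stat2, chr10:128270256-128270305, plus strand: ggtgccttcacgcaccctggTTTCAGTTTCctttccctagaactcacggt
The Oas1a match began 20 bases before the start and overlapped a further match 14 bases before it, and the Oas3 match began 75 bases before. Ifit1 had matches 104 and 85 bases before its start, Gbp2 had one 59 bases before a RefSeq start that lies inside the gene as GENCODE draws it and is not printed, and Stat2 had one 222 bases before. Oas1a, Oas3 and Ifit1 were called higher, Gbp2 was called lower and Stat2 was not called, so a match was present in members of each kind. Among members with a window, 3 of 6 called higher held the ISRE motif and 9 of 18 not called held it. Usp18, Zbp1 and Parp9, also called higher, had no window.

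The second motif, for the GAS, was TTCNNNGAA, which reads the same on both strands. It was in at least 1 window of 7 of the 26 members (26.9%), again counted by gene, and in 2726 of all windows (8.3%). The 7 were 3 of the 6 members called higher and 4 of the 18 not called. The match of Irf1, a member known as a target of interferon gamma, began 90 bases before the start and is shown in capitals.
Irf1, chr11:53769904-53769952, plus strand: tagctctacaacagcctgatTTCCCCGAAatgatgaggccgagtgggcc
A match of either motif describes letters in these windows and is no evidence of binding in these cells.

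The transcription factors come first, since they carry the signal to the other genes. Irf7 (ENSMUSG00000025498, chr7:141262706-141266481, minus strand, GRCm38), which amplifies the type I response, was at 27.6, 107, 22.0, 9.74 and 11.2 CPM across p57KO 1 to 5 and at 10.02, 5.97, 10.9, 4.45 and 4.03 CPM across p57WT 1 to 5. The value of p57KO 2 stood far above the rest, while p57KO 4 lay below p57WT 1 and p57WT 3, so the groups overlapped. Irf7 rose with a log2 fold change of 2.33 (SE 0.62, adjusted p = 0.0116), and it stayed called when each library was left out in turn (1.31 without p57KO 2, adjusted p = 0.0287). Irf1 (chr11:53770014-53778374, plus strand), an activator reached by both kinds of interferon, was at 87.5, 214, 115, 102 and 63.9 CPM across p57KO 1 to 5 and at 59.0, 78.1, 57.6, 52.9 and 79.1 CPM across p57WT 1 to 5. The ranges overlapped, since p57KO 5 lay below p57WT 2 and p57WT 5. Irf1 rose with a log2 fold change of 0.83 (SE 0.30, adjusted p = 0.0444) under TMM but was at -0.78 on the epithelial scale. Its call was lost when any one of p57KO 2, p57KO 3, p57KO 4 or any p57WT library other than p57WT 2 was left out, and its value was 0.52 (adjusted p = 0.105) without p57KO 2.

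Irf9, the DNA-binding partner of STAT2, was at 23.3, 73.9, 26.5, 21.0 and 14.1 CPM across p57KO 1 to 5 and at 9.56 to 21.4 CPM for p57WT. It missed the threshold by a small margin (log2 fold change 1.11, SE 0.41, adjusted p = 0.05003), was 0.54 without p57KO 2 and was -0.57 on the epithelial scale. Stat2, whose promoter is printed above, was not called under TMM: 20.3 ± 4.28 CPM for p57KO against 15.4 ± 2.81 CPM for p57WT (SD, n = 5 each), a log2 fold change of 0.40 (SE 0.24, adjusted p = 0.203) that was -1.08 and called lower on the epithelial scale.

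Among the 5 nucleic acid sensors, Zbp1 alone was called. Zbp1 (ENSMUSG00000027514, chr2:173206612-173218923, minus strand) senses nucleic acids of the Z form and can start cell death, and it had 3.53, 34.2, 5.32, 1.30 and 1.65 CPM across p57KO 1 to 5. In p57WT 1 to 5 it had 0.341, 0.237, 0.605, 0.523 and 0.593 CPM, which is close to the 0.119 to 0.392 CPM that 3 counts stood for in those libraries. All p57KO libraries were above all p57WT libraries, and p57KO 2 was far above the others. Zbp1 had 3 to 6 counts per p57WT library, so it passed the filter only through p57KO. Its lack of overlap therefore describes a member kept for its p57KO values, and the size of its fold change is uncertain. Its log2 fold change was 4.36 (SE 0.94, adjusted p = 0.00382), the largest of the tested members, and 2.72 without p57KO 2. It was still called higher, at 2.61, on the epithelial scale.

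The RNA sensors of the RIG-I family did not pass. Ddx58, which encodes RIG-I, was at 16.1 ± 2.65 CPM for p57KO and 15.9 ± 5.31 CPM for p57WT (log2 fold change 0.03, SE 0.28, adjusted p = 0.948), and it was -1.56 and called lower on the epithelial scale. Ifih1, which encodes MDA5, had a log2 fold change of 0.48 (adjusted p = 0.309), which was -0.99 on the epithelial scale. Dhx58, a modulator of both, was at 17.2 CPM in p57KO 2 and at 1.63 to 2.26 CPM in the other p57KO libraries, against 0.830 to 4.24 CPM for p57WT. Its log2 fold change of 1.12 (SE 0.72, adjusted p = 0.235) fell to -0.23 without p57KO 2, so that library decided its sign, and it was -0.52 on the epithelial scale. Eif2ak2, which encodes the RNA-activated kinase PKR that stops translation, was at 40.2 to 58.6 CPM for p57KO and 28.3 to 46.4 CPM for p57WT (log2 fold change 0.38, adjusted p = 0.183; -1.07 and called lower on the epithelial scale).

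The oligoadenylate synthetases make a short RNA messenger that activates the nuclease RNase L. Oas1a (ENSMUSG00000052776, chr5:120896256-120907521, minus strand) was at 7.65, 34.7, 14.9, 13.4 and 5.66 CPM across p57KO 1 to 5 and at 3.41, 2.45, 4.60, 1.96 and 1.90 CPM across p57WT 1 to 5. The groups did not overlap, the lowest p57KO library being p57KO 5 and the highest p57WT library p57WT 3. Oas1a rose with a log2 fold change of 2.42 (SE 0.50, adjusted p = 0.00308) and was called whichever single library was left out, with values between 1.90 and 2.65. On the epithelial scale it was 0.87 and not called (adjusted p = 0.120). Reads of Oas1a may be shared with Oas1g and other near copies, so its level is uncertain.

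Oas3 (chr5:120753098-120777661, minus strand) makes the longer messengers and lies in the same cluster. It had 1.55, 3.94, 2.45, 0.690 and 1.57 CPM across p57KO 1 to 5 and 0.228, 0, 0.968, 0 and 0.356 CPM across p57WT 1 to 5. Every p57WT value but that of p57WT 3 was at or under the level of 3 counts, and p57KO 4 lay below p57WT 3. The log2 fold change was 2.83 (SE 0.90, adjusted p = 0.0257), and the call was lost without p57KO 2 (adjusted p = 0.0657), p57WT 1, p57WT 4 or p57WT 5, and the value was 3.98 without p57WT 3. Oas2, another member of the cluster, was at 4.73 and 12.2 CPM in p57KO 1 and 2 and at 1.09 to 1.30 CPM in p57KO 3 to 5, against 0.0790 to 1.59 CPM for p57WT. It was not called (log2 fold change 2.33, SE 0.88, adjusted p = 0.0522) and was at 1.30 (adjusted p = 0.220) without p57KO 2. Oasl2, a relative that enhances RNA sensing, was at 0.71 (adjusted p = 0.372), at 0.0695 without p57KO 2 and at -0.94 on the epithelial scale.

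The IFIT proteins bind foreign RNA and hold back its translation, and the genes gave values of both signs. Ifit1 (ENSMUSG00000034459, chr19:34640871-34650009, plus strand) was at 1.46, 7.54, 21.9, 21.6 and 10.8 CPM across p57KO 1 to 5 and at 4.33, 0.474, 4.84, 1.44 and 1.90 CPM across p57WT 1 to 5. Here p57KO 3 and p57KO 4 were highest, not p57KO 2, and p57KO 1 lay within the p57WT range. Ifit1 rose with a log2 fold change of 2.31 (SE 0.71, adjusted p = 0.0228), and its call was lost without p57KO 3, p57KO 4, p57WT 4 or p57WT 5 (adjusted p between 0.0513 and 0.0569). Ifit2 was at 2.32, 3.39, 14.8, 9.20 and 5.66 CPM across p57KO 1 to 5 and at 4.89, 28.8, 7.38, 12.8 and 10.7 CPM across p57WT 1 to 5. It was not called under TMM (log2 fold change -0.87, SE 0.55, adjusted p = 0.228).

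Ifit3 did not pass the filter, with 2, 71, 32, 17 and 5 counts across p57KO 1 to 5 and 4, 14, 3, 3 and 3 in p57WT 1 to 5. Relative to depth it was at 0.172, 3.01, 1.12, 0.652 and 0.435 CPM across p57KO 1 to 5, against 0.363 to 0.553 CPM for p57WT. It was thus lower in p57KO 1 than in every p57WT library. Without the filter its log2 fold change was 1.39 (edgeR adjusted p = 0.156). The IFIT genes are close copies, and reads shared between them could be lost or split.

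Usp18 (ENSMUSG00000030107, chr6:121245906-121270917, plus strand) removes a ubiquitin-like tag that interferon adds to proteins and also damps the type I receptor. It was at 2.32, 23.6, 18.9, 11.9 and 4.79 CPM across p57KO 1 to 5 and at 0.569, 0.790, 2.42, 0.262 and 0.593 CPM across p57WT 1 to 5. The groups touched, with p57KO 1 just below p57WT 3, while every other p57KO library lay above every p57WT library. In p57WT only p57WT 3 was above 0.790 CPM, so Usp18 too passed the filter through its p57KO values. Its log2 fold change was 3.74 (SE 0.71) with the smallest adjusted p of the members, 0.00208, and it was 4.41 without p57WT 3. Usp18 alone among the members was called higher with the ribosomal repeat class as a term (3.23, adjusted p = 0.0387), and it was called on the epithelial scale (2.21, adjusted p = 0.0129). Trim25, a ligase of the same kind of tag that also activates RIG-I, was at 75.6 and 90.0 CPM in p57KO 1 and 2 and at 26.4 to 45.0 CPM in p57KO 3 to 5, against 31.6 to 52.5 CPM for p57WT. It was not called (log2 fold change 0.39, adjusted p = 0.376), was at 0.10 without p57KO 2 and was -1.14 and called lower on the epithelial scale.

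**Figure D2:**
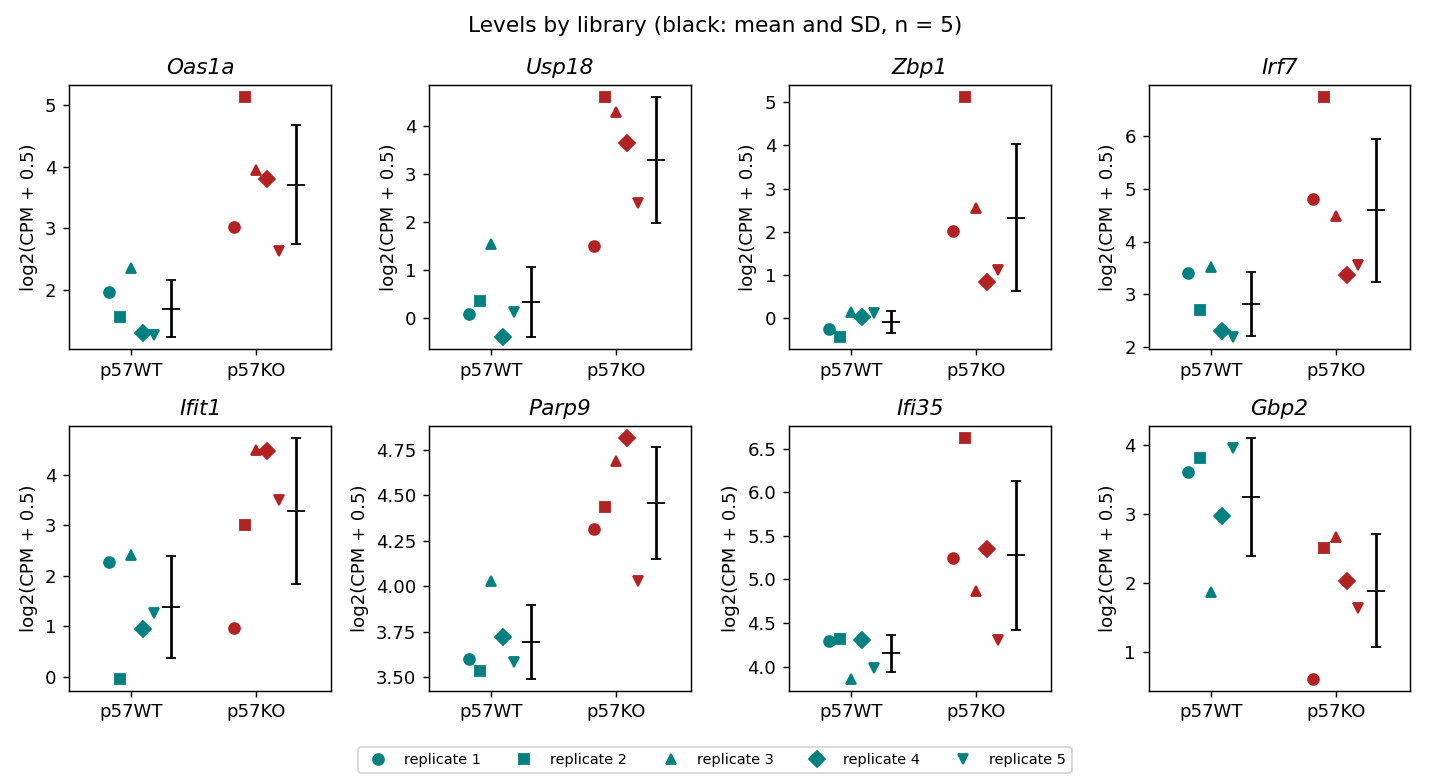
Points show log2(CPM + 0.5) of 8 members in each library, by genotype and replicate number, with the mean and SD (n = 5) in black. Oas1a and Zbp1 have every p57KO point above every p57WT point, Ifit1 is highest in p57KO 3 and 4, and Gbp2 is lower in most p57KO libraries.

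Among the interferon-induced GTPases, 1 of the 4 tested members was called, and it fell. Gbp2 (ENSMUSG00000028270, chr3:142620602-142638008, plus strand), which coats pathogen-containing vacuoles and answers mainly to interferon gamma, was at 1.03, 5.17, 5.85, 3.57 and 2.61 CPM across p57KO 1 to 5. It was at 11.7, 13.5, 3.15, 7.33 and 14.9 CPM across p57WT 1 to 5. Only p57WT 3 lay within the p57KO range. Gbp2 fell by 1.46 on the log2 scale (SE 0.50, adjusted p = 0.0364) and by 2.99 on the epithelial scale, and the call was lost without p57KO 4, p57KO 5, p57WT 1, p57WT 2, p57WT 4 or p57WT 5 (adjusted p between 0.0503 and 0.0889). Gbp3 and Gbp7, of the same family, were not called under TMM, with log2 fold changes of -0.43 (adjusted p = 0.668; 0.52 without p57WT 5) and 0.34 (adjusted p = 0.406), Gbp7 being at -1.20 on the epithelial scale, where both were called lower. The family's genes are alike, so reads could be shared between them.

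Mx1 and Mx2 belong to a family of genes for dynamin-like proteins that can trap viral capsids. Whether the alleles of these mice encode working proteins is not given in the sources used here. Mx1 had 6, 107, 68, 21 and 8 counts across p57KO 1 to 5 and 3, 0, 0, 0 and 6 in p57WT 1 to 5, and it did not pass the filter. It was at 4.53 and 2.38 CPM in p57KO 2 and 3 and at 0.516 to 0.805 CPM in the other p57KO libraries, against 0 to 0.711 CPM for p57WT. It had 0 counts in 3 of the 5 p57WT libraries, and without the filter edgeR gave a log2 fold change of 3.23 (adjusted p = 0.0370). DESeq2 gave 3.20 (adjusted p = 0.00949). Mx2 was at 0.958 to 4.70 CPM for p57KO and at 1.69 to 10.4 CPM for p57WT, the latter in p57WT 5, and was not called (log2 fold change -0.85, adjusted p = 0.288; -0.13 without p57WT 5). The neighbouring copies may share reads.

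The 3 membrane proteins that hold virus particles at the cell surface or block their fusion were not called under TMM. Bst2, the tether known as tetherin, was at 7.91, 35.3, 10.4, 11.2 and 7.40 CPM across p57KO 1 to 5 and at 3.19 to 10.1 CPM for p57WT. Its log2 fold change was 1.20 (SE 0.48, adjusted p = 0.0645), 0.58 without p57KO 2 and -0.54 on the epithelial scale. Ifitm1 was at 35.7, 112, 29.5, 25.5 and 35.0 CPM across p57KO 1 to 5 and at 46.3, 78.9, 71.0, 85.4 and 159 CPM across p57WT 1 to 5. Without p57KO 2 no p57KO library reached the p57WT range: the log2 fold change went from -0.89 (SE 0.43, adjusted p = 0.120) to -1.48 (adjusted p = 0.00593) when that library was left out. Ifitm2 was at 79.7, 321, 133, 183 and 125 CPM for p57KO and at 170 to 185 CPM for p57WT, a narrow range around which the p57KO libraries scattered (log2 fold change -0.09, adjusted p = 0.843; called lower on the epithelial scale at -1.65).

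Parp9, Dtx3l and Parp14 encode ADP-ribosyltransferases and a ligase that work together in the response to interferon and to DNA damage. Parp9 (ENSMUSG00000022906, chr16:35938470-35972605, plus strand) was at 19.4, 21.2, 25.4, 27.7 and 15.8 CPM across p57KO 1 to 5 and at 11.6, 11.1, 15.9, 12.7 and 11.5 CPM across p57WT 1 to 5. The groups met only at p57KO 5 and p57WT 3, and p57KO 2 did not stand out. Parp9 rose with a log2 fold change of 0.81 (SE 0.24, adjusted p = 0.0194), lost its call without p57KO 4 (adjusted p = 0.0531) and was at -0.68 on the epithelial scale. Dtx3l, which lies head to head with it, was at 24.7, 17.4, 34.6, 32.3 and 18.3 CPM across p57KO 1 to 5 and at 10.8 to 19.6 CPM for p57WT. It was not called (log2 fold change 0.70, SE 0.28, adjusted p = 0.0635), was called without p57KO 2 (0.84, adjusted p = 0.0394) or p57KO 5, and was at -0.70 on the epithelial scale. Parp14 was at 0.64 (adjusted p = 0.194) and at -0.96 on the epithelial scale. Exons of Parp9 and Dtx3l overlap on opposite strands, and without a stated strand setting their reads could not be told apart.

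Of the remaining members, Ifi35 rose. Ifi35 (ENSMUSG00000010358, chr11:101448407-101458698, plus strand), a leucine zipper protein, was at 37.5, 97.8, 28.8, 40.4 and 19.2 CPM across p57KO 1 to 5 and at 19.1, 19.4, 14.0, 19.2 and 15.3 CPM across p57WT 1 to 5. The p57WT libraries lay close together, and p57KO 5 alone was among them. Its log2 fold change was 1.36 (SE 0.37, adjusted p = 0.0135), and it was called without each single library (0.87 without p57KO 2), but it was at -0.24 on the epithelial scale. Xaf1, a gene that favours cell death, was at 10.2 and 17.9 CPM in p57KO 1 and 2, at 2.35 to 2.80 CPM in p57KO 3 to 5 and at 1.19 to 7.23 CPM for p57WT. It was not called (log2 fold change 0.84, adjusted p = 0.323; -1.003 on the epithelial scale), and without p57KO 2 it was at 0.13.

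Ifi44 reached 10.5 CPM in p57KO 2 and 0.153 to 1.92 CPM in the other p57KO libraries, against 1.31 to 2.54 CPM for p57WT. Its log2 fold change of 0.62 (adjusted p = 0.553) became -0.78 without p57KO 2 and was -1.08 on the epithelial scale. Ifi27, a mitochondrial protein gene, was not called under TMM at 40.9 ± 11.4 CPM for p57KO and 57.1 ± 6.96 CPM for p57WT (log2 fold change -0.48, SE 0.23, adjusted p = 0.119) and was called lower on the epithelial scale. Rsad2, which encodes viperin, and its neighbour Cmpk2, a nucleotide kinase, were at 0.89 (adjusted p = 0.335) and 0.53 (adjusted p = 0.210), and at -0.59 and -0.92 on the epithelial scale.

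**Figure D3:**
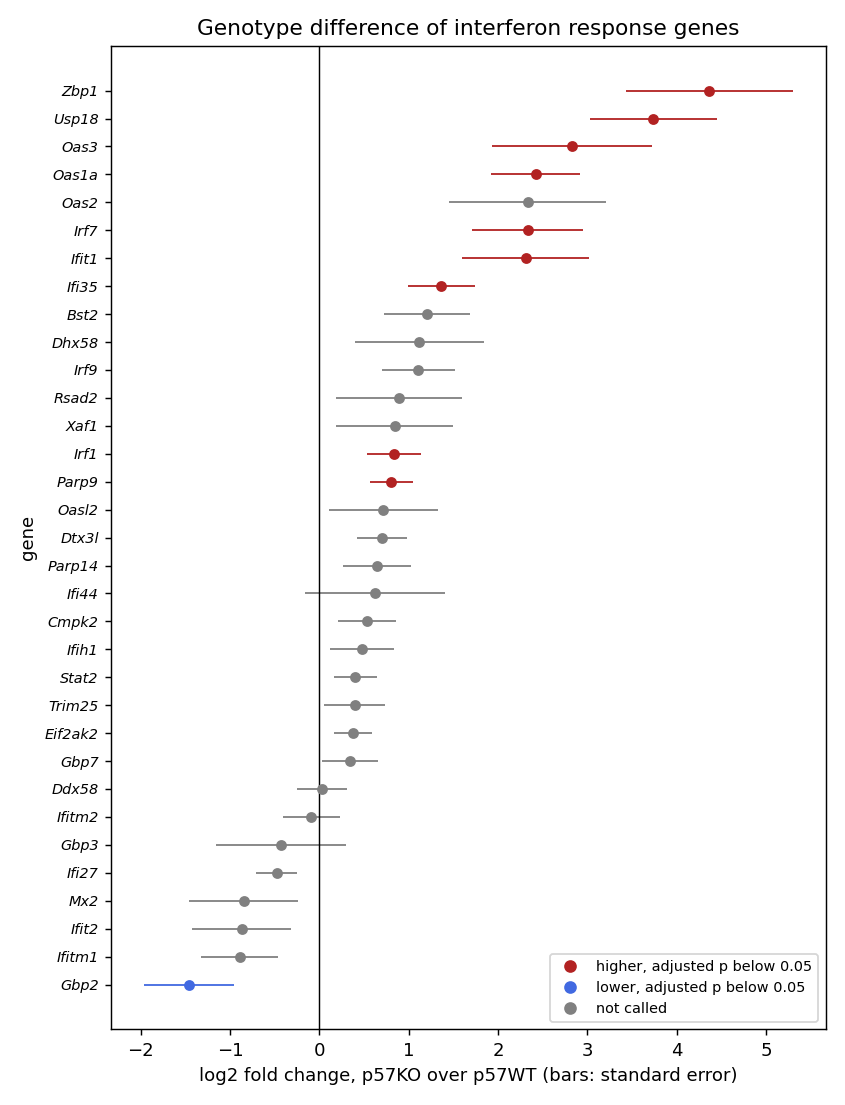
Log2 fold changes of p57KO over p57WT under TMM are shown for the 33 tested members, with standard errors as bars and colour for the call. They run from -1.46 for Gbp2 to 4.36 for Zbp1, with 9 called higher, 1 called lower and 23 not called. On the epithelial scale the members' median is -0.94 in place of 0.70.

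Per kilobase of exon the order of the members differed between the genotypes. In p57WT the highest members were Ifitm2 at 274 CPM per kilobase, Ifitm1 at 80.6, Ifi27 at 38.9 and Irf1 at 16.4, and in p57KO these levels were 257, 43.4, 27.9 and 29.3. Zbp1 was at rank 33 of 35 in p57WT and at rank 19 in p57KO. Usp18 moved from rank 29 to 15, Oas1a from 19 to 10, Irf7 from 17 to 8 and Ifit1 from 22 to 12, while Gbp2 moved from rank 9 to 25. Neighbours in this order were not tested against each other. These ranks describe means over 5 libraries and carry the influence of p57KO 2.

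The p57KO libraries differed widely among themselves. Of the 5, p57KO 2 was the highest for 24 of the 33 tested members (72.7%), and for 22.2% of all genes tested. The exceptions were led by p57KO 3, the highest for 5 members. The median difference of the members from their p57WT mean was 0.44, 1.33, 0.73, 0.21 and 0.18 on the log2 scale across p57KO 1 to 5. Summed over the members, the level came to 657, 1488, 743, 734 and 563 CPM across p57KO 1 to 5 and 590 to 759 CPM for p57WT, so 3 of the 5 p57KO libraries were within the p57WT range. Abundant members weigh most in this sum, such as Ifitm2 (170 to 185 CPM in p57WT) and Ifitm1 (46.3 to 159 CPM), neither called higher. Members such as Usp18 (0.262 to 2.42 CPM in p57WT) add little to it.

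Markers of blood cells moved with p57KO 2 as well. The numbers of markers called higher stand beside 19.3% of all genes tested. The 7 pan-leukocyte markers in the table, all called higher in p57KO, summed to 389, 3030, 335, 223 and 112 CPM across p57KO 1 to 5 and to 14.6 to 95.0 CPM for p57WT, where the defining marker Ptprc was at 0 in p57WT 4. Neutrophil markers, 8 of 13 in the table, summed to 639, 4877, 80.5, 50.9 and 32.1 CPM against 2.61 to 12.3 CPM, and 3 of the 4 tested were called higher. Markers low in p57WT could pass the filter only through p57KO, as Mmp8 did at 0 to 0.237 CPM in p57WT, so such counts describe the tested markers. Macrophage markers, all 11 in the table, summed to 212, 818, 114, 57.03 and 61.5 CPM against 14.6 to 89.0 CPM, with 6 of 10 tested called higher. Lymphocyte markers, 4 of 13 in the table, summed to 0.958 to 18.2 CPM for p57KO and 0.392 to 2.85 CPM for p57WT, and none was tested. Plasmacytoid dendritic cell markers, 4 of 8 in the table, summed to 87.2 to 178 CPM for p57KO and 13.5 to 36.4 CPM for p57WT. Most of that sum was Klk1 alone, at 83.2 to 170 CPM and 13.0 to 33.9 CPM. Of the 3 tested, Klk1 and Lair1 were called higher and Ccr9 was not (adjusted p = 0.745), so the list says little about that cell type. Of erythroid markers 7 of 8 tested were called higher, and of endothelial markers 0 of 2. The part of these cells in the members' levels was not tested.

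When p57KO 2, the library with the highest leukocyte marker sums, was left out, 7 of the 9 members called higher were still called and Dtx3l was added. In that fit the members called higher were Irf7, Zbp1, Oas1a, Ifit1, Usp18, Parp9, Dtx3l and Ifi35, and Gbp2 and Ifitm1 were called lower, where 16.9% of all genes were called higher and 15.2% lower. The members' median was then 0.46. Without both p57KO 1 and p57KO 2, the remaining p57KO libraries were all of label number 608, and 7 of 32 tested members were called higher and 1 lower, where 20.6% of all genes were called higher and 19.1% lower. The members' median was 0.37 in that fit, with 20 of 32 above 0. Usp18 was as high as before (3.75, adjusted p = 0.00119), and Oas1a (2.06), Ifit1 (2.89), Zbp1 (2.69), Parp9 (0.94), Dtx3l (0.92) and Ifi35 (0.83) were called too. Ifitm1 was lower at -1.50 (adjusted p = 0.00663). Irf7 was at 1.07 (adjusted p = 0.0540), Irf1 at 0.59 (adjusted p = 0.0690) and Gbp2 at -1.26 (adjusted p = 0.0579), and these were not called. Leukocyte markers stayed higher in this fit too. Of those tested, 5 of 7 pan-leukocyte markers (median 2.87), 4 of 5 neutrophil markers (median 3.19) and 4 of 10 macrophage markers (median 1.19) were called higher. Leaving out p57KO 1 and p57KO 2 therefore did not remove the leukocyte difference between the genotypes.

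**Figure D4:**
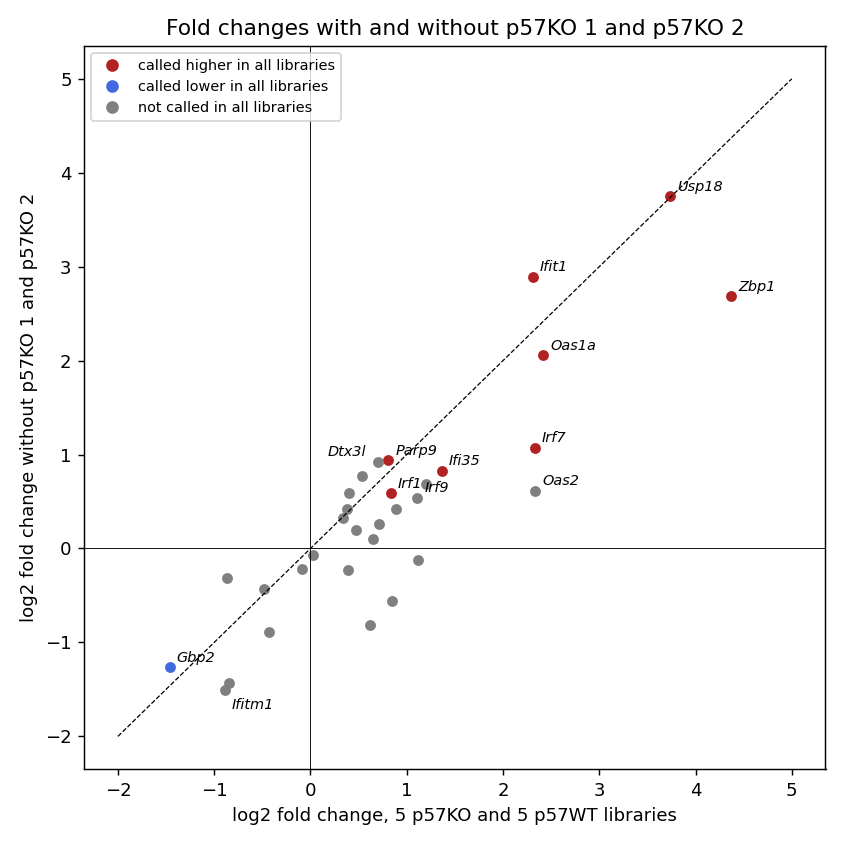
Each point is a member, with its log2 fold change over all 10 libraries on the x axis and without p57KO 1 and p57KO 2 on the y axis, the dashed line marking equal values. Usp18 stays on the line (3.74 and 3.75), Zbp1 and Irf7 lie below it, and Ifit1 lies above it.

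The label numbers allowed the members to be compared within one genotype. Within p57KO, 3 members were called higher in the libraries of 607 (p57KO 1 and 2) than in those of 608 (p57KO 3 to 5), and 0 lower, where 3.01% of all genes were higher and 3.67% lower. They were Irf7 (log2 difference 2.23, SE 0.58, adjusted p = 0.0409), Trim25 (1.30, SE 0.33, adjusted p = 0.0393) and Xaf1 (2.43, SE 0.65, adjusted p = 0.0466). Ifit1 (-1.99, adjusted p = 0.183) and Ifit2 (-1.78, adjusted p = 0.108) had values of the other sign. Usp18 was at 0.13 in this comparison (adjusted p = 0.951).

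Within 607, the label number that holds both genotypes, p57KO 1 and 2 were compared with the lone library p57WT 1, which was assumed to vary like the others. None of the 33 members was called by edgeR in either direction, where 1.1% of all genes were called higher and 4.94% lower. Before adjustment, 11 of the 33 members (33.3%) had a p below 0.05, as did 3614 of the 16710 genes (21.6%). Log2 differences were above 0 for 30 members, with a median of 1.07 beside 0.15 over all genes. Zbp1 was at 5.76 (adjusted p = 0.0618), Usp18 at 4.501 (adjusted p = 0.138), Irf7 at 2.75 (adjusted p = 0.0990) and Oas1a at 2.64 (adjusted p = 0.150). Oas3 was at 3.56, Ifi35 at 1.82, Irf1 at 1.36, Parp9 at 0.81 and Gbp2 at -1.89 (adjusted p between 0.116 and 0.357). Ifit1, called higher over all libraries, was at 0.0782 here (adjusted p = 0.976). Within p57WT, no member differed between 607 and 740 at an unadjusted p below 0.05, and 0% of all genes were called higher or lower by edgeR, with 366 genes at an unadjusted p below 0.05. The numbers 608 and 740 each hold 1 genotype, so genotype and number cannot be told apart there.

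The other genes of the pathway were followed in lists of their own. Their counts stand beside the same shares of all genes as above: 19.3% higher and 17.2% lower over all libraries, 20.6% and 19.1% without p57KO 1 and 2, and 2.17% and 65.8% on the epithelial scale. Of the interferon receptors and their kinases, 9 of 10 were in the table and tested, 4 rose and 0 fell. They were Il10rb, a chain shared by the receptors of type III interferon and interleukin 10 (log2 fold change 1.91, adjusted p = 0.000685), Ifnlr1, its type III partner (1.10, adjusted p = 0.0130), and the gamma receptor chains Ifngr1 (1.602, adjusted p = 0.00859) and Ifngr2 (0.80, adjusted p = 0.0184). On the epithelial scale Ifnlr1 was at -0.27 and Ifngr2 at -0.72, and 0 of the 9 were called higher and 5 lower. The same 4 were called higher without p57KO 1 and 2. The genes of the interferons themselves were not analysed here.

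Of 12 tested genes that sense nucleic acid or carry its signal upstream of interferon, 5 rose and 1 fell. Tlr4, the receptor of bacterial lipopolysaccharide, had a log2 fold change of 3.97 (adjusted p = 0.0124), Unc93b1, a chaperone of endosomal receptors, 1.65 (adjusted p = 0.0238), and the kinase Ikbke 1.08 (adjusted p = 0.0126; -0.47 on the epithelial scale). Traf3, an adaptor, fell by 1.01 (adjusted p = 0.0119). Without p57KO 1 and 2, Tlr4 was at 1.96 (adjusted p = 0.103) and Unc93b1 at 0.71 (adjusted p = 0.10001), neither called, and 1 of the 12 was called higher and 1 lower. Scaled to epithelial markers, 0 were called higher and 6 lower.

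Of 41 tested other interferon-stimulated genes, 16 rose and 2 fell, with a median of 1.06. Lgals3bp, a secreted glycoprotein, was at 1.78 (adjusted p = 0.000898), and Isg20, an RNA exonuclease, at 1.89 (adjusted p = 0.0105). Slfn1 and Slfn2, Schlafen genes best known from T cells and myeloid cells, were at 7.44 (adjusted p = 0.00349) and 6.89 (adjusted p = 0.00279). Slfn1 had 0 to 0.474 CPM in p57WT and 0.870 to 73.2 CPM in p57KO, highest in p57KO 2. It passed the filter only through p57KO, so the size of its fold change is uncertain. Slfn2 had 0.277 to 1.78 CPM in p57WT and 2.26 to 388 CPM in p57KO. Slfn1 was not tested without p57KO 1 and 2, and Slfn2 was at 3.02 without them. In that fit 9 of 40 were called higher and 1 lower, and on the epithelial scale 2 were higher and 13 lower.

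Of 12 tested genes induced chiefly by interferon gamma, 4 rose and 0 fell. They were the immunoproteasome subunits Psmb8 (log2 fold change 1.71, adjusted p = 0.0199), Psmb9 (1.21, adjusted p = 0.0119; -0.20 on the epithelial scale) and Psmb10 (1.23, adjusted p = 0.00721; -0.25), and the GTPase Irgm1 (1.13, adjusted p = 0.0134; -0.41). Without p57KO 1 and 2, Psmb8 was at 0.64 and not called (adjusted p = 0.0827), and 3 of 13 were called higher and 1 lower. On the epithelial scale 0 of the 12 were called higher and 5 lower. Of 9 tested negative regulators, 3 rose and 1 fell: the phosphatases Ptpn2 (1.33, adjusted p = 0.00197; -0.19 on the epithelial scale) and Ptpn6 (3.29, adjusted p = 0.00355) and the ubiquitin-editing enzyme Tnfaip3 (2.68, adjusted p = 0.0146) were higher, and Ptpn11 was at -0.71 (adjusted p = 0.0217). Ptpn6, a phosphatase abundant in leukocytes, was at 1.98 and Tnfaip3 at 1.31 without p57KO 1 and 2, where 3 of the 9 were called higher and 2 lower. Scaled to epithelial markers, 1 was called higher and 4 lower.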

How the data were processed

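RNA was sequenced from 5 p57KO and 5 p57WT libraries of sorted cells. The authors deposited whole-number raw counts of reads per gene, per the file headers, and only these counts were used. STAR 2.6.1d, HTSeq 1.0, DESeq2 1.22.2, Cufflinks 2.2.1, Trim Galore and FastQC are listed in the submitters' processing notes, with build mm10 (GRCm38). The strand setting and the annotation release are not given in the sources used here. Libraries were grouped by the genotype in the labels, and every pair of libraries within a genotype differed by more than sampling noise (chi-square per degree of freedom at least 9.50). Among p57WT, every pair with p57WT 2 was at 275 to 314, and the other pairs were at 9.50 to 32.9. So p57WT 2, a library of label number 740, was unlike the other p57WT libraries.

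Genotypes were compared over the whole table with edgeR 4.0.16 in R 4.3.3 (quasi-likelihood test, TMM, filterByExpr, no term but genotype). Filtering removed 3869 of 20579 genes. All adjusted p-values are Benjamini-Hochberg values from edgeR over all genes tested unless another tool is named, and the script was tested on simulated counts. SE is the log2 fold change divided by the root of the F statistic. CPM used TMM library sizes, and 3 counts, taken as the floor, stood for 0.105 to 0.392 CPM, which covers counting error only. Label numbers were compared by contrasts in a model with 4 groups, one for each genotype and number that occur together. Alternatives were DESeq2 1.42.0, limma 3.58.1 (voom), no filter, a replicate block, label number or ribosomal repeat class as a term, leaving out libraries, and epithelial scaling. Positions and exon lengths came from GENCODE M21.

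The members and lists were chosen with earlier results of these data known. Every member in the table could be named, and of each other list up to 4 genes with the smallest p. Without a stated strand setting, reads of Irf7, Usp18, Ifi35, Irf1 and Dhx58 could not be told apart from those of overlapping genes on the other strand, and Irf9 overlaps Rnf31. One gene that the naming rule picks is not reported here.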

Additional observations from a re-analysis of the deposited data

Results flagged for a closer look

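The 33 tested members and 2 genotypes formed 66 groups of 5 libraries. Of these, 12 held a library that lay far from the others of its genotype by Dixon's gap criterion on CPM. The criterion flags about 1 in 20 groups of independent, normally distributed values. CPM were used without logs, the groups share the same libraries, and the share over all genes was not computed. The count of 12 therefore describes these members and is not set against that rate. In 8 of the 12 the library was p57KO 2. It was at 107 CPM for Irf7 (next p57KO library 27.6), 73.9 for Irf9 (next 26.5), 17.2 for Dhx58 (next 2.26) and 34.2 for Zbp1 (next 5.32). It was also at 35.3 CPM for the surface tether Bst2 (next 11.2), 112 for Ifitm1 (next 35.7), 97.8 for Ifi35 (next 40.4) and 10.5 for Ifi44 (next 1.92). The same library had the highest sums of leukocyte, neutrophil and macrophage markers. At the low end, p57KO 1 had 6.28 CPM of the nucleotide kinase gene Cmpk2 (next 11.4).

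In p57WT, p57WT 3 was at 2.42 CPM for Usp18 (next 0.790) and 22.3 for Gbp7 (next 11.7), and p57WT 5 was at 6.64 for Gbp3 (next 1.502).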

How the results depend on the processing

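The 9 members called higher and 1 lower became 8 and 1 with voom, where 18% of all genes were called higher and 20.2% lower. With edgeR and no filter they became 11 and 0 of 35, where 17.2% and 14.3% of all genes were called. With DESeq2, also run without that filter and with 20.9% and 17.5% of all genes called, they became 14 and 1 of 35. They were 1 and 0 with the ribosomal repeat class as a term, and 2 and 12 on the epithelial scale. The label number as a term repeats the comparison within 607, p57KO 1 and 2 against the lone p57WT 1, and gave the same median of 1.07. Leaving out single libraries gave 6 to 13 higher and 0 to 2 lower, with a median of 0.46 to 0.82. Over all genes, 13.9% to 21.2% were called higher and 13.1% to 20.9% lower in those fits. The replicate block left 8 higher and 0 lower with a median of 0.50, where 17.1% of all genes were called higher and 17.6% lower. The replicate numbers did not pair the libraries: same-numbered libraries correlated at 0.20, 0.05, -0.13, -0.12 and 0.15, and 1 of 5 pairs, p57KO 1 with p57WT 1, was best with its own number from the p57KO side. The cause of these changes was not tested. Irf7, Zbp1, Oas1a, Usp18 and Ifi35 were called whichever single library was left out.

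Signs turned as follows. The voom value of Ifi44 was -0.53 and its blocked value -0.38. With the label number as a term Mx2 was 0.92, Gbp3 0.95, Ifitm1 0.67 and Ifitm2 0.24, and with the repeat class Ddx58 was -0.0784. Leaving out single libraries took Ifitm2 from -0.42 to 0.10, Ddx58 from -0.12 to 0.20, Dhx58 from -0.23 to 1.45, Ifi44 from -0.78 to 0.95 and Gbp3 from -0.74 to 0.52. Without p57KO 1 and 2, Ddx58 was -0.0702, Dhx58 -0.12, Trim25 -0.23, Ifi44 -0.81 and Xaf1 -0.56. On the epithelial scale the median was -0.94, with Irf1 at -0.78, Irf9 -0.57, Stat2 -1.08, Ifih1 -0.99, Ddx58 -1.56, Dhx58 -0.52, Eif2ak2 -1.07, Oasl2 -0.94, Trim25 -1.14, Gbp7 -1.20, Bst2 -0.54, Rsad2 -0.59, Cmpk2 -0.92, Parp9 -0.68, Parp14 -0.96, Dtx3l -0.70, Ifi35 -0.24, Ifi44 -1.08 and Xaf1 -1.003. The other values of single members under an alternative kept their sign, 478 of them also their side of the threshold, while 24 passed it and 52 lost it. Members near 1 CPM, such as Oas3 and Zbp1 in p57WT, rest on few reads in the shallower libraries.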
